A study of Oryza sativa with 32 samples.

Results

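The NBS-LRR immune receptor loci of rice were taken from the MSUv.7 annotation of the Nipponbare genome, as the loci whose representative gene model is described with NB-ARC, NBS-LRR or "disease resistance protein" and is not marked as a transposable element (TE). This gave 347 loci, among 39049 loci not marked as TE and 55986 loci in all. The annotation belongs to an RNA-seq study of aluminum (Al) tolerance in rice roots. That study compared the indica cultivar IR64, the tropical japonica cultivar Azucena and the reciprocal near-isogenic lines (NILs) IR64[AZU12.1] and AZU[IR6412.1], in which a segment of chromosome 12 was exchanged. Seedlings stayed in control solution or received 80 µM Al3+ activity for 4 h, with 4 replicates in each of 8 groups and 32 libraries in all. The file analysed here holds positions, marks and descriptions of gene models and no value of a library, so the values below describe the reference genome and not the response of the roots. They are complete counts without replicates. No test was run. Where the text says other loci, it means the other 38702 loci not marked as TE.

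NBS-LRR proteins are receptors inside the plant cell that detect pathogen effectors, either directly or through the host proteins on which the effectors act. Their nucleotide-binding domain, called NB-ARC, works as a switch between an ADP-bound resting state and an ATP-bound active state, and the leucine-rich repeats (LRR) restrain the switch and take part in recognition. The N-terminal domain, a coiled coil or a TIR domain, starts the response, which often ends in local cell death. In grasses nearly all of these receptors are of the coiled-coil class. The genes are known to lie in clusters and to differ widely in number and sequence between varieties.

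The 347 loci carried 43 different descriptions. The term NBS-LRR stood in 123 of them, NB-ARC in 91 and "disease resistance protein" in 241, and 108 loci held more than 1 of these terms. The largest group, with 137 loci, was described as NBS-LRR or another NBS protein. A further 83 loci were described only by the NB-ARC domain, and 51 were described as RPM1, an Arabidopsis receptor that guards the host protein RIN4. There were 21 loci described as RGA1 to RGA4, a name used for resistance gene analogs, and 7 as RPS2, another Arabidopsis guard of RIN4. A family was not given for 26 loci. A coiled coil was named in 8 descriptions and a TIR domain in 1.

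The remaining 22 loci go against the label. Their descriptions name Ve, the tomato protein for resistance to verticillium wilt, in 18 cases and Cf2 or Cf5, the tomato proteins for resistance to leaf mold, in 4 cases. In tomato these are receptor-like proteins of the cell surface, with leucine-rich repeats outside the cell and no nucleotide-binding domain. They met the rule through the words "disease resistance protein" alone, and 325 loci are left without them. On chromosome 12, 9 of these loci lay between LOC_Os12g10870 and LOC_Os12g12130, from 5.86 to 6.65 Mb, and no other member of the 347 lay in that stretch. On chromosome 1, 8 of them lay from 1.77 to 3.28 Mb among 11 members. These stretches were picked after the positions were seen.

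Chromosome 11 held 87 of the 347 loci (25.1%) and chromosome 12 held 50 (14.4%). Together the 137 loci were 39.5% of the members, while these chromosomes carried 12.9% of the other loci. Members made up 3.22% of the loci not marked as TE on chromosome 11 and 2.05% on chromosome 12. On the other 10 chromosomes they made up 0.623%. By share, chromosome 8 came next with 36 members (1.30%), and by number chromosome 1 with 39 (0.769%). Chromosome 3 had the lowest share, with 9 members (0.205%). Per length of annotated chromosome, chromosome 11 had 3.00 members per Mb, chromosome 12 had 1.82 and chromosome 3 had 0.247. The unplaced sequences ChrUn and ChrSy held 185 loci and 0 members. By kind of description, of the NBS-LRR and other NBS loci 61 of 137 lay on chromosomes 11 and 12, as did 33 of 83 NB-ARC domain loci, 20 of 51 RPM1 loci, 10 of 22 Ve and Cf loci and 8 of 26 loci with no family. The RGA loci had 4 of 21 there and the RPS2 loci 1 of 7, and these groups are small. Whether the kinds differ was not tested.

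**Figure D1:**
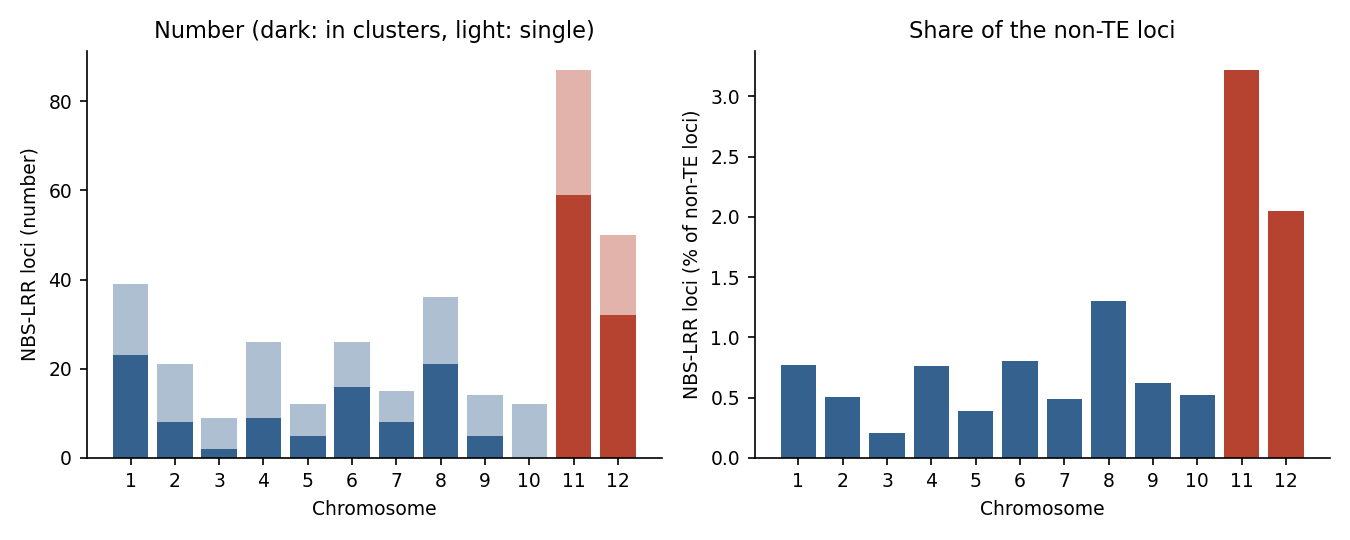
NBS-LRR loci on each of the 12 rice chromosomes, with chromosomes 11 and 12 in red, as the number of loci (left; the dark part of a bar is in clusters, with the next NBS-LRR locus within 5 loci, and the light part stands alone) and as the percent of the loci not marked as TE (right). Chromosome 11 stands highest with 87 loci (3.22%), followed by chromosome 12 with 50 (2.05%), and chromosome 3 lowest with 9 (0.205%).

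Along the chromosomes the members were spread unevenly. Each chromosome was divided into 10 bins with equal numbers of loci, in the order of the annotation. Bin 3 held 73 members (21.0%) over the 12 chromosomes, where they were 2.10% of the loci not marked as TE. Most of these 73 lay on chromosomes 11 and 12, so the peak in bin 3 is not one of all chromosomes. Bin 4 came next with 45 members (13.0%), which were 1.56% of the loci not marked as TE. It was the fullest bin of chromosomes 6, 8 and 9, with 10, 9 and 6 members. Bin 6 held 20, the fewest. On chromosome 11 there were 26 members in bin 3, 17 in bin 9 and 19 in bin 10. On chromosome 12 there were 19 in bin 3 and 16 in bin 7. Chromosome 1 had its peak at its start, with 12 members in bin 1. In windows of 1 Mb, 137 of 380 windows held a member, and the 16 windows with 5 or more held 130 members (37.5%). The fullest windows were both on chromosome 11, from 6 to 7 Mb with 18 members among 100 loci not marked as TE and from 27 to 28 Mb with 17 among 95. On chromosome 12, the window from 5 to 6 Mb held 10 members among 92.

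The short-arm ends of chromosomes 11 and 12 carried no member. The first member of chromosome 11 was LOC_Os11g10550 at 5.78 Mb, after 754 loci not marked as TE, and the last was LOC_Os11g46210. On chromosome 12 the first was LOC_Os12g06920 at 3.38 Mb, after 466 such loci, and the last was LOC_Os12g39620. In the first 3 Mb, 442 loci not marked as TE on chromosome 11 and 422 on chromosome 12 included 0 members. Such a gap was also found on chromosomes 3, 5 and 9, where the first members lay at 5.60, 7.21 and 5.11 Mb, after 793, 815 and 312 loci not marked as TE.

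**Figure D2:**
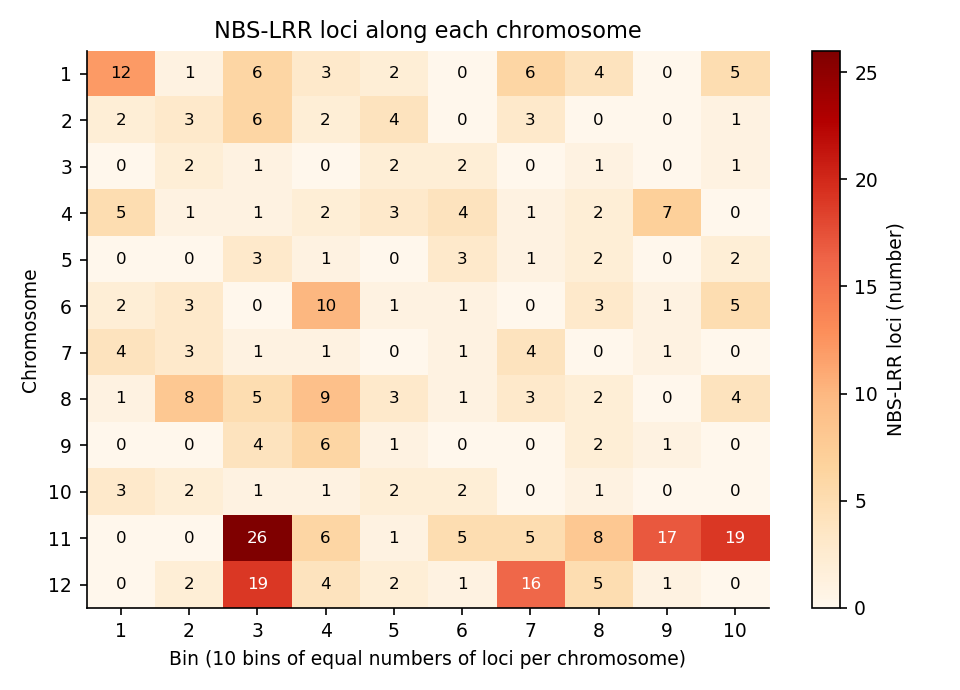
Number of NBS-LRR loci in each of 10 bins with equal numbers of loci along each chromosome, in the order of the annotation. Bin 3 of chromosomes 11 and 12 holds 26 and 19 loci, and bin 1 holds 0 on chromosomes 3, 5, 9, 11 and 12.

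A member was joined to the next one when that lay within 5 loci in the order of the annotation, TE loci included. By this definition 188 of 347 members (54.2%) stood in 63 clusters and 159 (45.8%) stood alone. There were 34 clusters of 2 members, 15 of 3, 5 of 4, 1 of 5, 6 of 6 and 2 of 7. The 9 clusters of 5 or more held 55 members. Chromosomes 11 and 12 had 30 of the 63 clusters, and 66.4% of their members were clustered against 46.2% on the other 10 chromosomes. Chromosome 10 had 12 members and 0 clusters. The span of a cluster had a median of 29.0 kb and ranged from 4.34 to 109.6 kb. In 17 clusters no other locus stood between the members. In the others 131 loci stood between, of which 51 (38.9%) were marked as TE. Among the 5 loci on each side of the clustered members, with members left out, the share was 32.3%. The clusters were rather uniform in strand but not in description: in 46 of 63 all members were on the same strand, and in 24 all had the same description.

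The largest clusters, of 7 members, were on chromosomes 6 and 11. The one on chromosome 6 ran from LOC_Os06g17880 to LOC_Os06g17970 (10375846 to 10451152, 75.3 kb). All 7 members were on the plus strand, with no TE locus between them, and their lengths were 4418, 2957, 2157, 9637, 6855, 6092 and 6101 bp. The cluster on chromosome 11 ran from LOC_Os11g11950 to LOC_Os11g12050 (6631958 to 6709237, 77.3 kb) and was less regular. It had 5 members on the plus and 2 on the minus strand, with lengths of 2705, 2661, 7806, 12653, 265, 5542 and 6118 bp. The member of 265 bp, LOC_Os11g12020, was not marked as expressed.

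Of the clusters of 6 members, the first 3 in genome order differed in kind. LOC_Os01g06720 to LOC_Os01g06836 on chromosome 1 spanned 66.8 kb, and 5 of its 6 members were of the receptor-like Ve and Cf kind. Of 6 loci between them, 4 were marked as TE. LOC_Os01g52270 to LOC_Os01g52340, on the same chromosome, was the most compact of the 3 with 33.2 kb. Its members were all described by the NB-ARC domain, all on the plus strand, and mostly short, with lengths of 1696, 1473, 3631, 1527, 1503 and 1852 bp. LOC_Os04g52970 to LOC_Os04g53160 on chromosome 4 had the widest span of any cluster, 109.6 kb, with 12 loci between its members, 2 of them marked as TE. The other clusters of 6 lay on chromosome 11 (LOC_Os11g12260 to LOC_Os11g12350 and LOC_Os11g44960 to LOC_Os11g45090) and chromosome 12 (LOC_Os12g10330 to LOC_Os12g10410), and the cluster of 5 was LOC_Os11g39260 to LOC_Os11g39330.

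Neighbouring members mostly pointed the same way. In clusters there were 125 pairs of consecutive members, of which 98 (78.4%) were on the same strand, 17 (13.6%) were divergent, with their starts facing, and 10 (8.0%) were convergent. Of the 59 pairs with no locus between, 46 (78.0%) were on the same strand. Among 31567 other adjacent pairs of loci not marked as TE this was 51.5%, with 23.2% divergent and 25.3% convergent. The high share was not particular to the NBS-LRR loci. Counted in the same way, 85.8% of 141 cytochrome P450 pairs, 78.8% of 66 OsWAK pairs and 73.5% of 102 receptor-like kinase pairs were on the same strand. Both members of a pair had the same description in 55 of the 125 pairs (44.0%). The gap between consecutive members had a median of 7245 bp, and 3344 bp between adjacent ones, against 2395 bp between other adjacent loci.

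**Figure D3:**
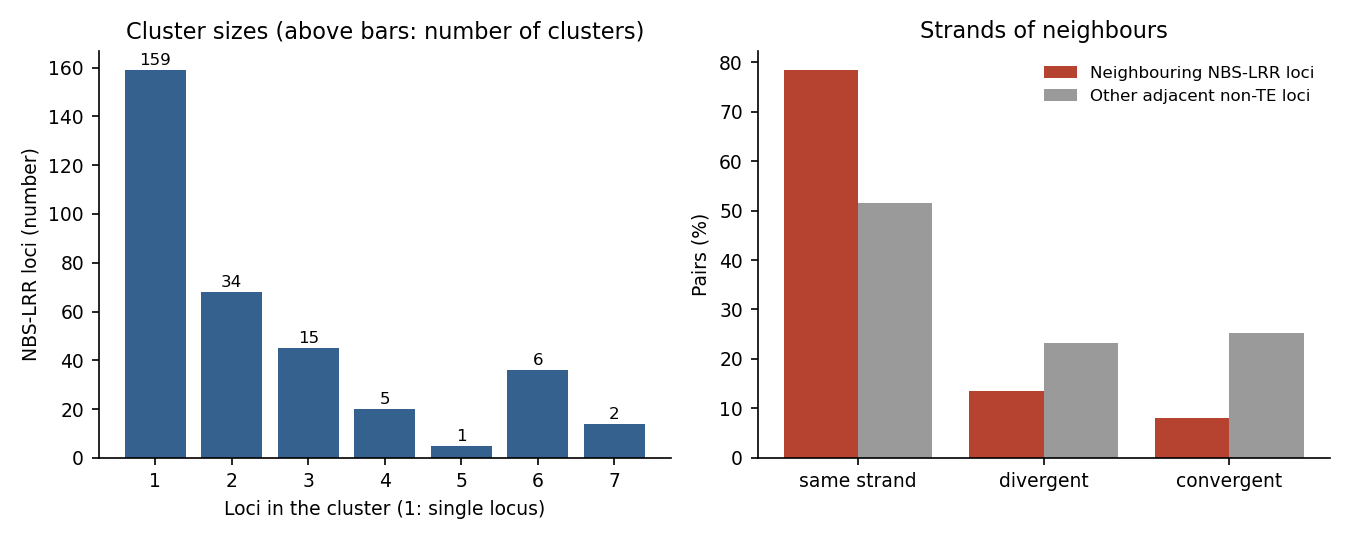
Left, number of NBS-LRR loci that stand alone (159) or in clusters of each size, with the number of clusters above each bar, where the 8 clusters of 6 or 7 hold 50 loci. Right, percent of pairs on the same strand, divergent or convergent for consecutive NBS-LRR loci in clusters (125 pairs, 78.4% on the same strand) and for other adjacent loci not marked as TE (31567 pairs, 51.5%).

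Divergent receptor genes are of interest because some rice receptors are known to act as pairs whose genes face each other and may share a promoter region. There were 9 adjacent divergent pairs among the 59 adjacent pairs of members (15.3%), a lower share than the 23.2% of other adjacent pairs. A further 8 divergent pairs had other loci between them and are not listed here. Whether any divergent pair, adjacent or not, acts in this way was not tested. The shortest gaps between starts, chosen after their values were seen, were 172 bp for LOC_Os01g58520 and LOC_Os01g58530, 220 bp for LOC_Os05g50780 and LOC_Os05g50790, 527 bp for LOC_Os12g10390 and LOC_Os12g10400 and 820 bp for LOC_Os11g39310 and LOC_Os11g39320. Members of each of these 4 pairs had different descriptions, as had most consecutive members in clusters. The wording was often general, such as "disease resistance protein" without a family, so it does not show different kinds of receptor. The cluster of 6 on chromosome 12 (LOC_Os12g10330 to LOC_Os12g10410) held 2 adjacent divergent pairs, with gaps of 3857 and 527 bp, while the clusters of 7 held 0.

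In the study, the chromosome 12 segment of the NILs holds ART1 (LOC_Os12g07280), which encodes the zinc finger transcription factor that regulates Al tolerance genes. In the segment of the Azucena-background line AZU[IR6412.1], 12 of 424 loci not marked as TE were members (2.83%, against 2.05% on the whole of chromosome 12). They ran from LOC_Os12g06920 to LOC_Os12g10870, and 6 were in clusters, as were 32 of the 50 members of chromosome 12. All 12 were marked as expressed, as were all 50 of the chromosome. The segment of the IR64-background line IR64[AZU12.1] held 1 member among 313 loci, LOC_Os12g06920, which both segments share. This locus was also the nearest member before ART1, at 199 kb with 32 loci between. The nearest member after it, LOC_Os12g09240, was 1254 kb away with 185 loci between. The positions are those of the Nipponbare reference, and the receptors that IR64 and Azucena themselves carry there were not analysed here.

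TE loci were somewhat more frequent around members than around other loci. Among the 5 loci on each side, 1010 of 3470 neighbours (29.1%) were marked as TE, against 22.7% around the other loci not marked as TE. A locus near several members was counted for each of them, and the 1010 came from 749 distinct TE loci. The median was 3 of 10 neighbours against 2. No TE neighbour was found for 50 members (14.4%, against 22.4%), and 46 members had 6 or more (13.3%, against 8.60%). The difference was smaller once position was matched. When the other loci were weighted to the distribution of the members over chromosomes the background was 25.0%, and when they were weighted over chromosomes and the 10 bins it was 28.6%. Members in turn take up places among the neighbours of members. With those left out, 32.9% of the remaining neighbours were marked as TE, against 29.2% for the loci weighted by chromosome and bin.

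TE loci were 33.4% of the neighbours of single members, 25.5% of those of clustered members and 19.3% for clusters of 5 or more. Clustered members have other members, which are not TE, among their neighbours by definition. With members left out of the neighbours the values were 33.4, 32.3 and 29.8%. By chromosome, the share was higher around members than around other loci on 9 of 12 and lower on 3. It was higher on chromosome 12 (38.6 against 29.4%) and chromosome 10 (41.7 against 26.2%), close on chromosome 11 (29.7 against 28.4%) and chromosome 1 (17.7 against 18.1%), and lower on chromosome 7 (21.3 against 23.4%) and chromosome 6 (16.5 against 24.4%). In these values by chromosome, members were counted among the neighbours. The 7 RPS2 loci had the highest share among the kinds, 52.9%, and the 22 Ve and Cf loci had 40.0%. These values rest on few places. Of the RPS2 loci, 3 stood in a cluster on chromosome 9 and shared neighbours. Of the Ve and Cf loci, 9 lay in the stretch of chromosome 12 described above. The highest number for a single member, 9 of 10, was found for LOC_Os09g09750, LOC_Os10g03100 and LOC_Os12g31200, which were named after their values were seen. By type of element, unclassified retrotransposons were 12.3% of the neighbours of members against 9.19% around other loci, Ty3-gypsy elements 5.42 against 3.76%, CACTA transposons 3.49 against 2.90% and Ty1-copia elements 1.76 against 1.21%. Mutator elements were 0.0865 against 0.108%, which rests on 3 neighbours of members. The values by chromosome, kind and type of element were not weighted by bin. Over all types together, weighting by chromosome and bin raised the background from 22.7 to 28.6%, against 29.1% around members. Whether any type differs at matched positions was not tested.

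**Figure D4:**
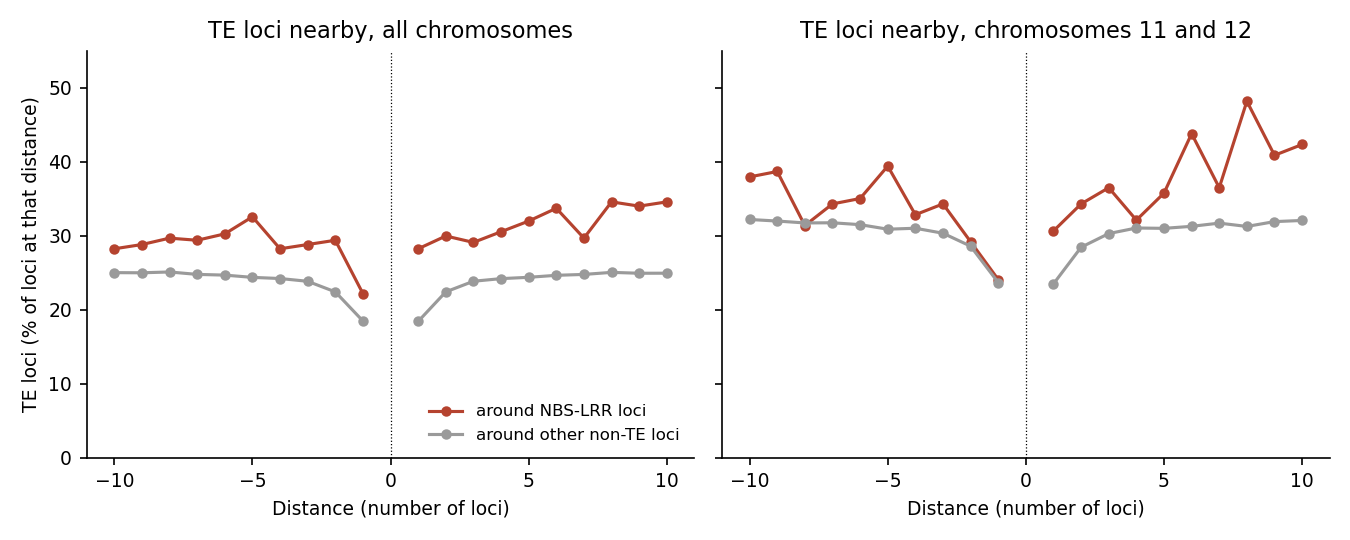
Percent of loci marked as TE at each distance of up to 10 loci before and after a locus, for NBS-LRR loci and for other loci not marked as TE, over all chromosomes and over chromosomes 11 and 12. Directly beside a member the share was 22.2 and 28.2%, and over the 5 loci on each side it was 29.1% against 22.7% around other loci.

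NBS-LRR loci were long. The length of a locus was measured over all of its gene models together. Members had a median length of 3883 bp (quartiles 2790 and 5472.5 bp), against 2167 bp (973 and 3934 bp) for the other loci. Many of the other loci are short and carry no functional description. Against the 22418 described ones the difference was smaller, with 3020 bp (1687 and 4689 bp). Of the members, 140 measured from 2 to 4 kb and 132 from 4 to 8 kb, 27 were longer and 48 were shorter. The longest was LOC_Os09g10054 with 19511 bp, described as RPS2 and with TE loci as 8 of its 10 neighbours, followed by LOC_Os08g19694 with 12939 bp and LOC_Os11g12000 with 12653 bp. The shortest were LOC_Os01g16360 with 243 bp, LOC_Os11g12020 with 265 bp and LOC_Os04g02040 with 315 bp, too short to encode a whole receptor. NB-ARC domain loci had a median of 4401 bp and NBS-LRR and other NBS loci of 4249 bp, while RPM1 loci had 3066 bp and Ve and Cf loci 3166.5 bp. Members on chromosomes 11 and 12 had a median of 3797 bp and those elsewhere 3902 bp.

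Most members had a single gene model. More than 1 was annotated for 27 of 347 members (7.78%), against 16.1% of the other loci and 22.4% of the other described loci. The members were long, and long loci have more gene models. With the other described loci weighted to the lengths of the members, the value was 27.4%. Between 2 and 4 kb it was 3.57% of members against 23.4% of other described loci, from 4 to 8 kb 10.6 against 37.3%, and above 8 kb 29.6 against 41.1%. The members with the most gene models were LOC_Os06g49380 with 6, LOC_Os12g39620 with 5 and, with 4 each, LOC_Os05g15040, LOC_Os10g10360 and LOC_Os11g39190.

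**Figure D5:**
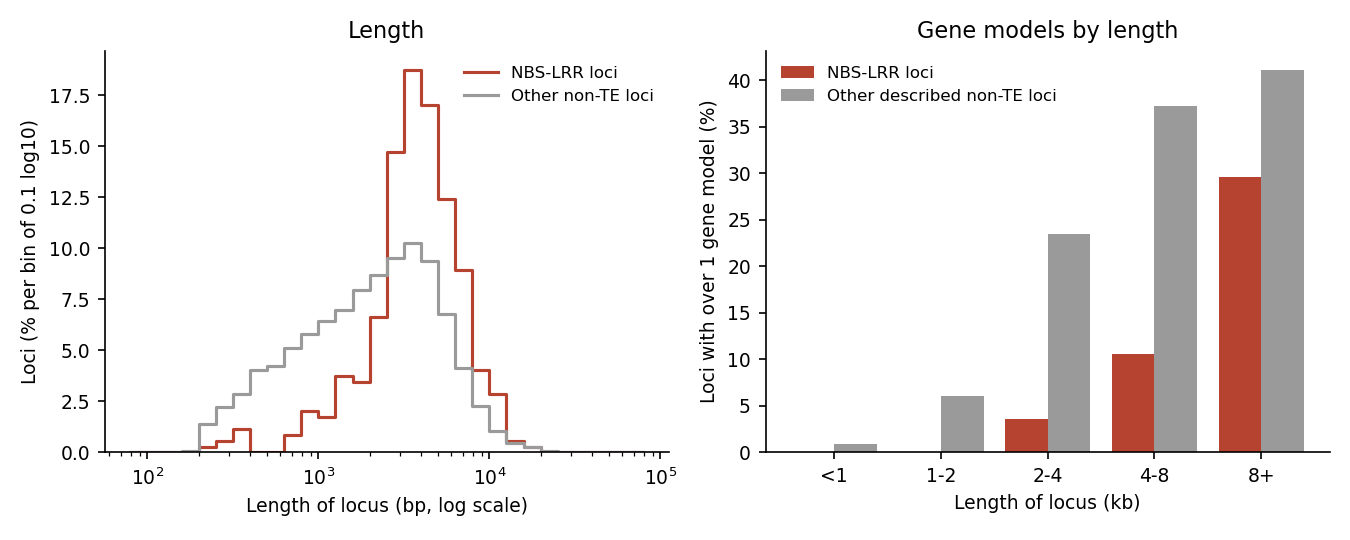
Left, distribution of locus length (bp, log axis) for NBS-LRR loci (median 3883 bp) and other loci not marked as TE (median 2167 bp), as the percent of loci in bins of 0.1 log10 units. Right, percent of loci with more than 1 gene model by length (kb), where NBS-LRR loci are below other described loci in each of the 5 length classes, with 3.57 against 23.4% from 2 to 4 kb. The class below 1 kb, with 0 of 17 members against 0.896%, is too small to show a difference. Few members also stand in the classes from 1 to 2 kb (0 of 31 against 6.04%) and above 8 kb (8 of 27 against 41.1%).

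The annotation marked 342 of 347 members (98.6%) as expressed, against 93.5% of the other loci and 99.2% of the other described loci. The mark records that transcript evidence was known to the annotation, and it says nothing of the roots sampled here. The lower value over all other loci includes 2333 loci described as hypothetical proteins, of which 0 carried the mark. The 5 members without the mark were LOC_Os02g27680 (819 bp), LOC_Os04g02480 (345 bp), LOC_Os11g12020 (265 bp), LOC_Os11g17110 (870 bp) and LOC_Os11g17120 (1145 bp). All were shorter than the lower quartile of the members. Among the other loci, too, those without the mark were short, with a median of 626.5 bp against 2331 bp for those with it. On chromosome 11, which held 25.1% of all members, lay 3 of the 5, and LOC_Os11g17110 and LOC_Os11g17120 are adjacent.

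The NBS-LRR loci were set beside 3 families of the same annotation that are not receptors of this kind. Of 350 cytochrome P450 loci, oxidases of many plant metabolites, 8.00% lay on chromosomes 11 and 12, as did 11.7% of 128 OsWAK loci, the wall-associated kinases, and 10.0% of 70 ABC transporter loci. The NBS-LRR value was 39.5%. Clustering was not highest in the NBS-LRR loci: 57.1% of the P450 loci and 74.2% of the OsWAK loci were in clusters, against 22.9% of the ABC transporters, and the largest P450 cluster had 14 members. TE neighbours were 25.5% for P450, 25.9% for OsWAK and 20.7% for ABC transporter loci. More than 1 gene model was found for 8.57, 9.38 and 18.6% of them.

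Other immune loci were taken by their descriptions. The 316 receptor-like kinase loci, which include receptors for microbial molecules at the cell surface, had 15.5% on chromosomes 11 and 12 and 48.1% in clusters. For 237 LRR loci with none of the 3 terms the values were 19.4 and 21.5%. The 96 loci of WRKY transcription factors, many of which act in defense, had 13.5 and 25.0%. Of 10 pathogenesis-related loci 7 were clustered, among them a cluster of 5 on chromosome 12 from LOC_Os12g36830 to LOC_Os12g36880. A list of the names SGT1, RAR1, NPR1 and HSP90, chaperones and regulators of plant immunity, found 3 loci, described as SGT1, RAR1 and HSP90, none of them on chromosomes 11 and 12. All of the loci in the last 3 lists were marked as expressed, as were 99.2% of the other described loci.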

How the data were processed

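The deposited processed file is the MSUv.7 rice annotation that the authors used for their 32 libraries, with 0 columns for single libraries. According to the methods of the study, reads were aligned to MSUv.7 with HISAT, and the resulting values were not used here. The file gives 66338 gene models with their start and stop positions, strand, description and marks. The bounds of a locus enclosed all of its gene models, its description and TE mark came from the representative model, and the expressed mark from any model. Members of clusters were at most 5 loci apart, and the neighbours were the 5 loci on each side. Depth and replicate error do not apply. The members and lists were chosen with earlier results of these data known. Loci named were the ends of the 5 largest clusters (ties in genome order), the 3 longest, the 3 shortest and the 3 with the most gene models, the ends of chromosomes 11 and 12 and of the NIL segments, and the members nearest to ART1. All other loci and clusters named, such as the divergent pairs, the members without the expressed mark and those with most TE neighbours, were chosen after their values were seen. The ends of the segments were read from the study's description of the lines. The scripts were tested on simulated data. Of 40 alternatives, 12 were added after seeing the data. RefSeq genes (39387) matched 0 locus identifiers. The tables were made with pandas 2.3.3 and numpy 2.4.6, and the plots with matplotlib 3.10.9, all under Python 3.11.15, with scipy 1.17.1 for binomial intervals.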

Additional observations from a re-analysis of the deposited data

How the results depend on the processing

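Under 40 alternatives, 29 values stayed within set bounds and 11 moved. The bounds were the 95% binomial interval, the quartiles or, for the number of loci, 1.5 times. They served only as a yardstick, because loci are not independent draws and members in clusters share neighbours. By NB-ARC alone the rule found 91 loci. With each cluster or single locus counted once, 34.2% lay on chromosomes 11 and 12. The share of members in clusters was 30.3% for adjacent loci, 60.5% within 10 loci, 60.2% with steps over loci not marked as TE and 71.8% for gaps of at most 200 kb. With related resistance descriptions added it was 61.9%, and with the RPP13-like, xa1, rp1 and pib descriptions too it was 63.0%, both chosen after seeing the data. TE neighbours were 25.2% with 1 locus on each side (18.5% around other loci), 32.9% with members left out (22.8%) and 26.6% without chromosomes 11 and 12 (21.7%). No paired analysis was possible because only annotated positions, and no values of single libraries, were at hand.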

Other observations

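Descriptions just outside the rule name other resistance proteins of cereals. There were 26 loci described as Yr10, a stripe rust resistance protein of wheat, 22 as MLA and 17 as RGH1A, proteins of the mildew resistance locus of barley, and 22 as RPP13-like. Of the Yr10 loci 19 lay on chromosomes 11 and 12, of the MLA loci 12, of the RGH1A loci 9 and of the RPP13-like loci 3. The 112 loci with related resistance descriptions, without the RPP13-like ones, had 51 (45.5%) on these chromosomes, and 30 (26.8%) lay within 5 loci of a member, against 3.94% of all loci not marked as TE outside the rule. That was so for 4 of the 26 Yr10 loci, 6 of the MLA loci and 1 of the RGH1A loci.

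Over all chromosomes 180 members were on the plus and 167 on the minus strand. Chromosome 7 had 2 on the plus and 13 on the minus strand. A single locus with a term of the rule was marked as TE, LOC_Os11g42680, and was left out. Another locus was overlapped by 11 members (3.17%), against 4.09% of the other loci.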
